A study of Mus musculus with 4 samples.

Results

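The genes described here move, store or sense zinc, iron and copper. They comprise all genes of the zinc exporter family Slc30 and of the zinc importer family Slc39, the copper transporters Slc31a1 and Slc31a2, and 12 further genes chosen by name: Slc11a2, Cybrd1, Tfrc, Slc40a1, Heph, Fth1, Ftl1, Mt1, Mt2, Mtf1, Atp7a and Atp7b. This choice gave 38 of the 30284 genes with a matched transcript: 10 of the Slc30 family, 14 of the Slc39 family, 3 for zinc buffering and sensing, 7 for iron and 4 for copper. All 4 libraries came from organoids grown in Matrigel from small-intestinal crypts of 2 male C57BL/6J mice, labelled 9 weeks old, with no genetic change named in the labels. GW3965 is a small molecule that switches on the liver X receptors (LXR), nuclear receptors that sense oxidised cholesterol. Each mouse gave 1 culture kept for 6 h in 2 µM GW3965 and 1 kept for 6 h in its solvent DMSO, so that each group held 2 cultures. The question was which transcripts differ after LXR activation. With 1 culture per mouse and treatment, p-values rest on the spread between these 4 cultures. With so few cultures, that spread is estimated for each gene partly from all genes together.

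Metal ions are needed by many enzymes and are toxic in excess, so the intestinal epithelium balances uptake at the lumen, storage in the cell and export to the blood. Free zinc activates the transcription factor MTF1, which binds metal response elements in the promoters of the metallothioneins and of the zinc exporter gene Slc30a1. Iron instead acts largely after transcription: iron regulatory proteins bind a stem-loop, the iron-responsive element, at the 5′ end of ferritin and ferroportin messages to limit translation, and at the 3′ end of the transferrin receptor message to stabilise it. Protein levels and translation were not measured here, so what follows concerns RNA amounts only.

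The metallothionein promoters are shown because Mt1 and Mt2 differed most between the mice among these genes, and that of Slc30a1 because its product exports zinc. The sequences are from RefSeq (build GRCm38.p6, plus strand, 250 bases before to 30 bases after the annotated start), with the metal response element core, TGCACNC or TGCGCNC on either strand, in capitals. Mt1 lies at chr8:94178839-94179118, Mt2 at chr8:94172368-94172647 and Slc30a1 at chr1:191906531-191906810.
Mt1: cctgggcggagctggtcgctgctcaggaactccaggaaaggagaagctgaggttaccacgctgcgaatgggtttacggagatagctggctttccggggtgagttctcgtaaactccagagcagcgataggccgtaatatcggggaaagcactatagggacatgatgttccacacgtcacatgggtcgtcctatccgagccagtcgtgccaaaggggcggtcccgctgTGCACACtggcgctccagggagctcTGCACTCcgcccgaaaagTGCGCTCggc
Mt2: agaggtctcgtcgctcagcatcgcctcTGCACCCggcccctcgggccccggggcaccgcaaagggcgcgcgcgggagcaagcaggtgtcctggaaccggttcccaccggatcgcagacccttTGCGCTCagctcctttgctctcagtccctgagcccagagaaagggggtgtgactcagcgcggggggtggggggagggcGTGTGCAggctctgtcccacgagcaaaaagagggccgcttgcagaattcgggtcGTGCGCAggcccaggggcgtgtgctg
Slc30a1: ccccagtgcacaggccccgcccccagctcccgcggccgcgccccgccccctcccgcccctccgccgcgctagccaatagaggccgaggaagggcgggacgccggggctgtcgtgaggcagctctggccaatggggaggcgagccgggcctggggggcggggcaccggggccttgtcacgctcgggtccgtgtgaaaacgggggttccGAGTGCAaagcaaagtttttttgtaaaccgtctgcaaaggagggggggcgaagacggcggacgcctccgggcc

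Mt1 held 3 of these cores, Mt2 4 and Slc30a1 1. Of 32851 windows of this length in the RefSeq table, 24.1% held at least 1 core, 1.73% at least 3 and 0.405% at least 4. A RefSeq promoter was matched for 31 of the 38 genes, in 38 windows, and 18 windows (47.4%) of 17 genes held a core. Slc30a4 and Slc30a10 held 3 each, whereas both Slc39a10 windows held 0. The direct repeat DR4, a known LXR recognition sequence, searched on both strands, was found in 0 of these genes and in 0.0152% of all windows. A match of letters is no evidence of binding, and its lack says only that these letters are not in the window.

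The iron-responsive elements are shown because they are the sites at which iron regulatory proteins act on these messages. A search of the untranslated regions of GENCODE M21 transcripts (build GRCm38) for a loop CAGTGN, closed by 5 base pairs below which an unpaired C and at least 3 of 5 further pairs follow, matched 29 of 22064 protein-coding genes (0.131%), 4 of them described here. Each run of 27 bases is given from 5′ to 3′ as DNA, with the loop in capitals. Fth1, Ftl1 and Slc40a1 carried 1 match each in the 5′ UTR, and Tfrc carried 4 in the 3′ UTR. An element with a mismatch or bulge in the 5 upper pairs is missed by this search. These are therefore counts of matches to this pattern, and a gene without a match may still carry an element.
Fth1: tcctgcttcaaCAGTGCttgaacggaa
Ftl1: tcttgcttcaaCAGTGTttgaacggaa
Slc40a1: aacttcagctaCAGTGTtagctaagtt
Tfrc 3′ UTR, bases 3316 to 3342 of Tfrc-201: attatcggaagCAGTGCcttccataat
Tfrc 3′ UTR, bases 3695 to 3721: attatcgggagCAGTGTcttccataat
Tfrc 3′ UTR, bases 3760 to 3786: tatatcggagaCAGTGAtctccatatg
Tfrc 3′ UTR, bases 3807 to 3833: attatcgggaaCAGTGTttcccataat

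The libraries held 16572359 to 19486547 estimated counts. Transcripts encoded by mitochondrial DNA took 14.0% of the counts in the GW3965 library of mouse 1 and 7.60 to 9.43% in the other 3, so that library stood apart. Normalised CPM is the count of a gene divided by the library size and multiplied by a constant that is the same for every library. The library size used is scaled by edgeR's trimmed mean of M-values. The LXR target Abca1, a cholesterol exporter, rose from 0.462 and 1.75 to 42.8 and 60.4 normalised CPM. Its log2 fold change was 5.54 ± 0.43 (SE), with an adjusted p of 0.00134 in edgeR's quasi-likelihood test. Abcg1 (4.35 ± 0.25, adjusted p = 0.000157) and Srebf1 (2.53 ± 0.24, adjusted p = 0.00525) also rose. One protocol text among the labels refers to colon tissue, whereas the tissue label names small intestine. The small-intestinal marker Gata4 was at 212 to 325 normalised CPM and the ileal marker Fabp6 at 47.3 to 116; of the colon markers Hoxd10 was at 0 in every library, Hoxa13, Hoxb13 and Aqp8 were at or below 0.795, and Car1 was at 1.23 to 2.38.

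In the vehicle-treated organoids the levels of these genes were compared in TPM, a unit corrected for transcript length. By the mean of both DMSO libraries, 4 genes were at 100 TPM or more, 17 between 10 and 100, 14 between 1 and 10, and 3 below 1. The ferritin subunits led: Ftl1, the light chain, was at 3089 and 2711 TPM in mouse 1 and mouse 2, and Fth1, the heavy chain that oxidises iron, at 2848 and 2853. They ranked 41 and 43 among the 19623 genes with any TPM in DMSO. Together they made up 72.9% of the TPM of all 38 genes in mouse 1 and 84.7% in mouse 2, and the 38 genes made up 0.814% and 0.657% of the libraries. Ftl1 shared 48.8% of its 31-base stretches with other genes, chiefly ferritin pseudogenes such as Gm15590, and Fth1 shared 12.7%, so their exact levels depend on how reads were divided among the copies.

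Mt1 and Mt2, small cysteine-rich proteins that bind zinc and copper, came next. Mt1 was at 1106 TPM in the DMSO library of mouse 1 and 354 in that of mouse 2, and Mt2 at 557 and 135. Their sensor Mtf1 was at 22.2 and 21.5 TPM, close to equal in the 2 mice. Of this, 14.9 and 15.1 TPM came from a retained-intron transcript, Mtf1-204. The coding transcript Mtf1-201, 7631 bases long, was at 1.93 and 1.73 TPM, so the level of coding message is uncertain. Mtf1 shared 7.77% of its stretches with the overlapping antisense gene 1110065P20Rik.

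Among the Slc39 family, which brings zinc into the cytosol, Slc39a1 (51.1 and 50.5 TPM), Slc39a4 (44.7 and 51.8), Slc39a7 (48.0 and 46.8) and Slc39a14 (39.7 and 29.1) were the highest in DMSO. Slc39a4 is the apical importer whose loss in humans causes the zinc deficiency acrodermatitis enteropathica, Slc39a7 releases zinc from the endoplasmic reticulum, and Slc39a14 also carries manganese and iron. The order of Slc39a1, Slc39a4 and Slc39a7 is not settled, since Slc39a4 was the lowest of the 3 in mouse 1 and the highest in mouse 2. Slc39a1 shared 27.5% of its stretches, mainly with the pseudogene Slc39a1-ps. Slc39a5, a basolateral importer, was at 22.9 and 25.5 TPM. Slc39a11 (18.1 and 15.4), Slc39a9 (12.1 and 10.99) and Slc39a3 (9.55 and 7.85) followed, and Slc39a8, Slc39a10, Slc39a13, Slc39a6 and Slc39a2 were below 5 TPM in each DMSO library. The reads given to Slc39a2 fell, apart from 1, on a retained-intron transcript; the gene overlaps Mettl17 on the same strand, so its level is uncertain.

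The Slc30 family moves zinc out of the cytosol. Slc30a4, a vesicular transporter, was the highest in DMSO at 30.1 and 32.0 TPM. It was followed by Slc30a9, a mitochondrial zinc transporter, at 21.5 and 23.9, Slc30a5, of the early secretory pathway, at 19.2 and 14.9, and Slc30a1, the exporter of the plasma membrane, at 18.8 and 13.5. The 677-base transcript Slc30a1-202 gave 10.2 and 7.75 TPM of this from 91 and 71 counts. Slc30a1-201, with 782 and 539 counts, was at 8.60 and 5.78 TPM, so the place of Slc30a1 in this order is uncertain. Slc30a6, the partner of Slc30a5, was at 9.78 and 8.496, Slc30a7, of the Golgi, at 4.31 and 4.49, and Slc30a2, a vesicular exporter, at 2.99 and 1.99. Slc30a10, which mainly exports manganese, was at 1.89 and 2.47 TPM. Slc30a3 and Slc30a8, known from neurons and pancreatic beta cells, had 0 counts in all 4 libraries, which allows at most 3 counts or 0.154 to 0.183 normalised CPM per library as counting error. Slc39a12, a brain importer, had 1 count in 1 library.

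For iron, Tfrc, the transferrin receptor, was at 62.4 and 56.4 TPM in DMSO. Heph, the ferroxidase that partners export, was at 21.5 and 22.6, Slc11a2, the apical importer of ferrous iron, at 11.03 and 10.2, Cybrd1, the apical ferric reductase, at 11.4 and 8.33, and Slc40a1, ferroportin, the only known cellular iron exporter, at 6.997 and 5.20. For copper, the importer Slc31a1 was at 16.0 and 15.3 TPM and its relative Slc31a2 at 11.6 and 13.5. The copper-exporting ATPases Atp7a (2.97 and 3.73) and Atp7b (3.18 and 3.73) were lower, at similar levels.

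**Figure D1:**
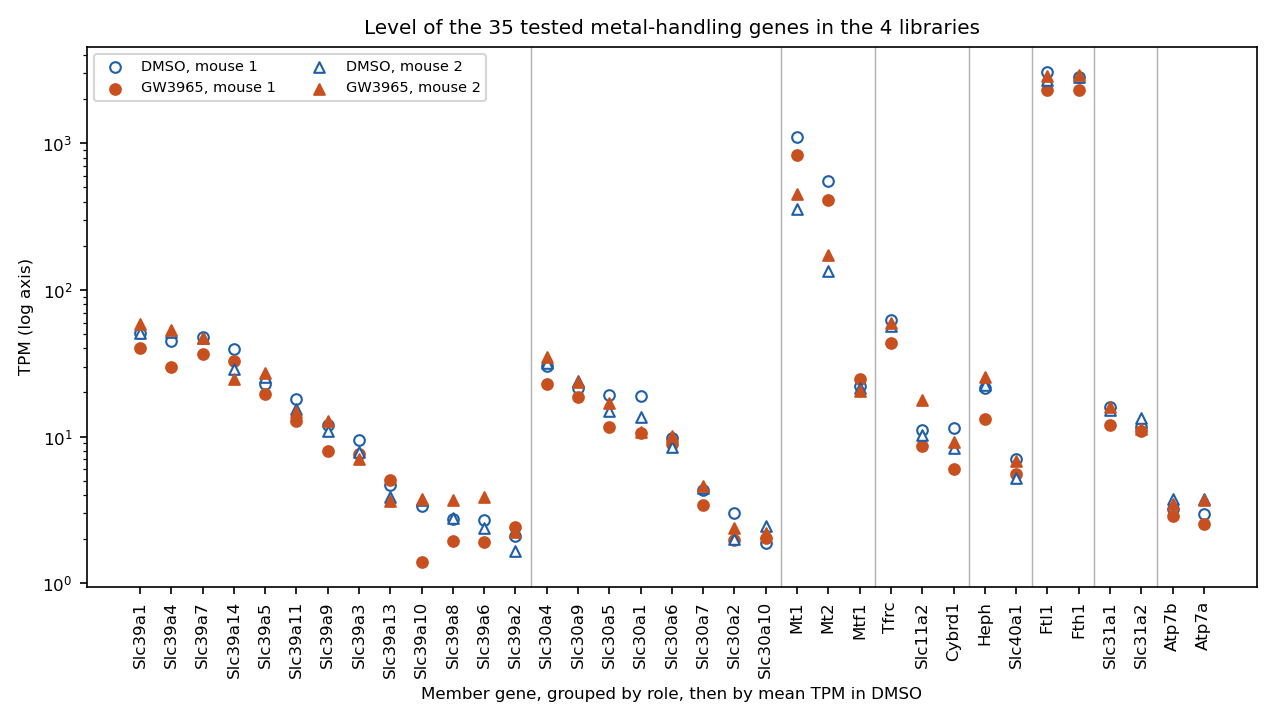
TPM (log axis) of the 35 genes that passed the filter on low counts, grouped by role and ordered by mean TPM in DMSO; open blue symbols are DMSO, filled orange symbols GW3965, circles mouse 1 and triangles mouse 2. Ftl1 and Fth1 are the highest, and Mt1 and Mt2 show the widest gap between circles and triangles.

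After GW3965, 0 of the 35 genes that passed the filter on low counts differed from DMSO (edgeR, Benjamini-Hochberg over all 13602 genes tested, adjusted p of 0.99986 for each). The background was 0.0588% of all genes called, or 8 of 13602. At an unadjusted p under 0.05 the count was also 0 of 35, against 1.05% of all genes, and DESeq2 called 0. With the mouse as a block edgeR called 0 of the 35, against 0.353% of all genes. Fitted log2 fold changes ran from -0.30 for Cybrd1 to 0.41 for Slc39a2. Their median size was 0.08, against 0.12 over all genes tested. The 95% intervals of 32 of the 35, from the fit without a block, lay within 1 log2 unit of 0. Those of Mt1 (-1.11 to 1.02), Mt2 (-1.37 to 1.198) and Slc39a2 (-0.24 to 1.06) reached past it. In that fit, differences between the mice count as spread.

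Of the 35 genes, 10 had a log2 fold change above 0 (50.0% of all genes did) and 25 below, with a median of -0.05 (all genes, 0.00). The pairs of cultures differed in this. In mouse 1, 25 of 35 (71.4%) were lower with GW3965, with a median of -0.16, while 50.2% of all genes were lower. In mouse 2, 16 of 35 (45.7%) were lower, with a median of 0.02, while 50.7% of all genes were lower. The GW3965 library of mouse 1 is the one with 14.0% mitochondrial counts, and markers differed there in both directions. The 6 general epithelial markers, of which Krt8 alone gave 11226, summed to 18477 normalised CPM against 24846, 26208 and 27900 in the others. The enterocyte markers summed to 5196 (others 3705 to 4703) and the Paneth markers to 15207 (others 12147 to 14011). The 10 immune markers summed to 188 (others 72.4 to 94.2), of which Gzma alone gave 124. The enterocyte, Paneth and immune sums were highest in that library and the epithelial sum was lowest, but single genes did not all follow. The enterocyte markers Sis (263) and Lct (9.38) were lowest there. The Paneth marker Itln1 (776) was below its level in the DMSO library of mouse 1 (896). The part of these shifts in the lower values of mouse 1 was not tested, and in whole cultures fewer cells of a type and less RNA per cell cannot be told apart. The direction was the same in both mice for 14 of 35 genes (40%, against 33.5% of all genes), and the 2 groups of libraries did not overlap for 5 of 35 (14.3%, against 18.5%), namely Ftl1, Tfrc, Slc30a6, Slc39a2 and Slc39a3.

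Cybrd1 was at 54.4 (DMSO) and 34.2 (GW3965) normalised CPM in mouse 1 and at 41.9 and 44.0 in mouse 2, with a log2 fold change of -0.30 ± 0.21. The low value was that of the GW3965 library of mouse 1 alone, and the groups overlapped. Slc30a1 was at 44.8 and 33.0 in mouse 1 and at 32.3 and 30.01 in mouse 2 (-0.29 ± 0.21). It was lower with GW3965 in each mouse, yet the treated culture of mouse 1 was above the untreated culture of mouse 2. Slc39a2 was at 4.47 and 6.15 in mouse 1 and at 3.76 and 4.83 in mouse 2 (0.41 ± 0.29), the 2 treated values being above both untreated ones. Its unadjusted p in edgeR was 0.189, and its 71 to 101 estimated counts per library leave little precision.

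Slc30a5 and Slc30a6, which act as a pair that loads zinc into enzymes of the secretory pathway, had opposite signs. Slc30a5 was at 53.0 and 38.3 normalised CPM in mouse 1 and at 43.6 and 46.8 in mouse 2 (-0.18 ± 0.20). Slc30a6 was at 17.8 and 19.4 in mouse 1 and at 16.4 and 18.5 in mouse 2 (0.15 ± 0.19). Both differences were smaller than their standard errors. Tfrc was at 260 and 204 in mouse 1 and at 250 and 249 in mouse 2 (-0.17 ± 0.23), so that again the GW3965 library of mouse 1 was the low one.

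Among the apical and basolateral transporters Slc39a4 was at 84.4 and 66.2 normalised CPM in mouse 1 and at 103 and 101 in mouse 2 (-0.17 ± 0.24). Slc39a14 was at 96.8 and 102 in mouse 1 and at 77.8 and 70.7 in mouse 2 (-0.02 ± 0.23). Slc30a10 was at 9.86 and 12.5 in mouse 1 and at 13.6 and 11.5 in mouse 2 (0.03 ± 0.24). These 3 showed no common direction, and the groups overlapped for each. The metallothioneins, which differed between the mice, were at -0.05 ± 0.48 (Mt1) and -0.08 ± 0.57 (Mt2), the widest errors of the 35. This fit has no mouse term, so the difference between the mice is part of these errors. With the mouse as a block the log2 fold changes were 0.05 (Mt1) and 0.04 (Mt2). Within mouse 1 and mouse 2 the differences were -0.17 and 0.27 for Mt1, and -0.20 and 0.28 for Mt2.

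Of the iron genes, Slc11a2 had the least spread, at 25.99 and 26.1 normalised CPM in mouse 1 and at 26.1 and 28.4 in mouse 2 (0.06 ± 0.18). Heph was at 88.2 and 64.3 in mouse 1 and at 97.9 and 104 in mouse 2 (-0.14 ± 0.25). Slc40a1 was at 17.1 and 16.0 in mouse 1 and at 10.6 and 13.0 in mouse 2 (0.07 ± 0.26). Both export genes were lower with GW3965 in mouse 1 and higher in mouse 2. Fth1 was at 1804 and 1733 in mouse 1 and at 1912 and 1855 in mouse 2 (-0.05 ± 0.25), and Ftl1 at 2247 and 1987 and at 2086 and 2081 (-0.09 ± 0.25). Of the 2 ferritins, the larger difference within a mouse was that of Ftl1 in mouse 1, at -0.18 log2 units.

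The fitted log2 fold changes of the copper genes spanned a narrow range, from -0.09 (Slc31a2) to -0.04 (Atp7b). Differences within a mouse were wider, at 0.22 in mouse 1 and -0.38 in mouse 2 for Slc31a2. For Atp7a they were -0.44 and 0.26. Slc31a1 was at 52.2 and 46.7 normalised CPM in mouse 1 and at 52.7 and 52.4 in mouse 2 (-0.08 ± 0.18). Atp7a was at 12.9 and 9.44 in mouse 1 and at 13.3 and 15.9 in mouse 2 (-0.04 ± 0.27). Atp7b was at 18.4 and 19.9 in mouse 1 and at 23.0 and 20.4 in mouse 2 (-0.04 ± 0.20). Each ATPase had opposite signs in the 2 mice. The genes not given singly lay between -0.21 (Slc30a2) and 0.16 (Slc39a13). Slc31a1, Heph, Slc39a5, Slc39a6, Slc39a9, Slc39a11, Slc39a13 and Slc11a2 overlap a gene on the opposite strand (Cdc26, Hsf3, Ankrd52, Elp2, Erh, Cog1, Psmc3 and Gm5475). Their reads may include some of that gene, since no source at hand says how strand was used in counting. Slc39a13 shared 3.15% and Slc11a2 5.71% of their 31-base stretches with other genes.

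**Figure D2:**
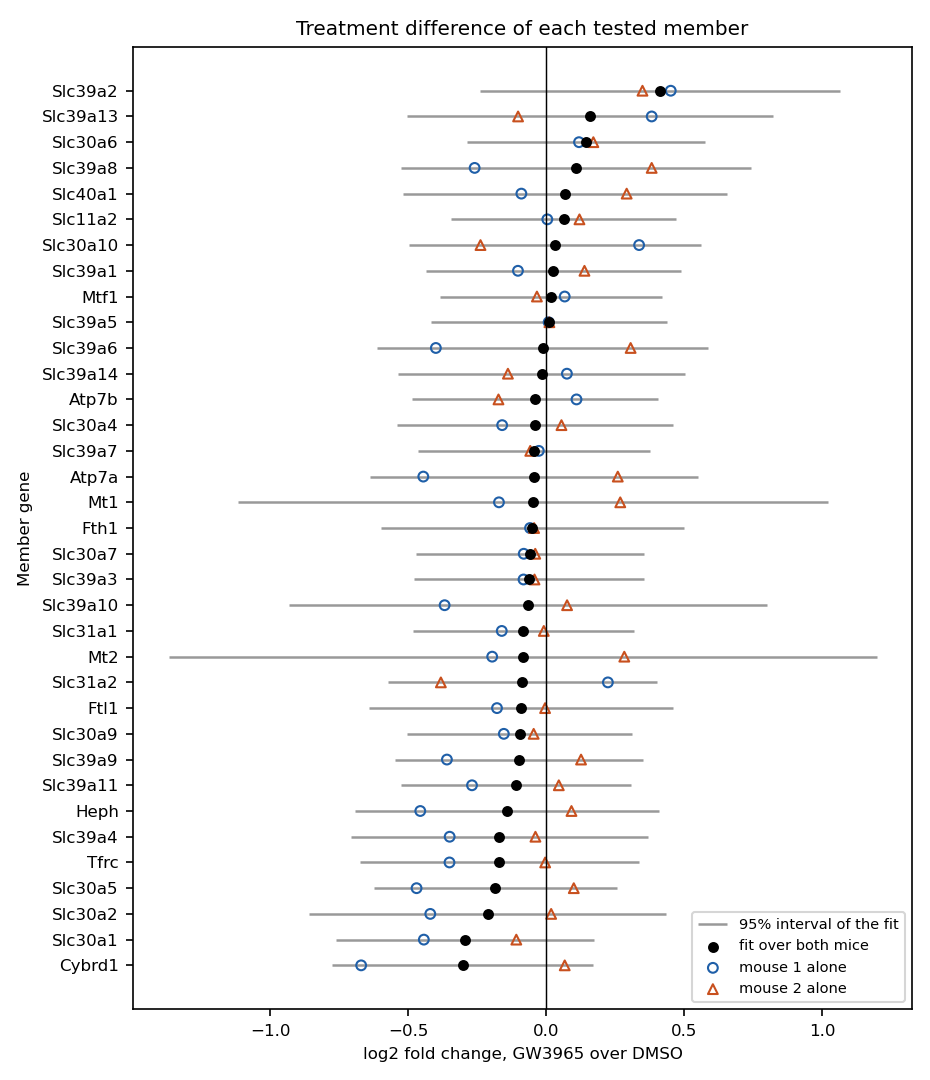
Log2 fold change of GW3965 over DMSO for the 35 genes tested (horizontal axis), with the fit over both mice (black), its 95% interval (grey line) and the difference in each mouse alone (open symbols). All 35 intervals include 0, and the mouse 1 values lie to the left more often than the mouse 2 values.

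The 38 genes had 134 transcripts, of which 72 passed the filter. edgeR called 0 of these and 0.0% of all 32357 transcripts tested; 2 of 72 (2.78%) were at an unadjusted p under 0.05, against 2.61% of all, and DESeq2 called 0 of the 72 (0.603% of all). Those 2 were a retained-intron transcript of Tfrc, Tfrc-204, and a coding transcript of Slc39a7, Slc39a7-203. Tfrc-204 had 37 and 240 estimated counts in mouse 1 and 76 and 179 in mouse 2 for DMSO and GW3965 (2.00 ± 0.50, adjusted p = 0.993 in edgeR), beside 4975 and 3067, and 4605 and 4547, for the full-length Tfrc-201. Slc39a7-203 had 319 and 479 in mouse 1 and 205 and 485 in mouse 2 (0.99 ± 0.28, adjusted p = 0.99998 in edgeR), while Slc39a7-201 had 983 and 456, and 1092 and 894. Neither passed the adjusted threshold, and short reads must be divided between overlapping transcripts. The gene level of Slc11a2 in TPM, 17.8 in the GW3965 library of mouse 2 against 8.63 to 11.03 in the others, rests on short transcripts such as Slc11a2-206 (6.01 TPM from 56 counts); the full-length Slc11a2-201 was at 2.74 to 4.04 TPM and Slc11a2-205 at 3.51 to 4.12.

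The larger differences lay between the 2 mice. With treatment as a covariate, edgeR called 3 of the 35 genes (8.57%) in mouse 2 against mouse 1, against 0.684% of all 13602 genes; 4 of 35 (11.4%) were at an unadjusted p under 0.05, against 5.01% of all genes. This fit has 1 residual degree of freedom, so the spread of each gene was taken largely from all genes together. Its p-values therefore do not measure the spread of the single gene. Mt1 and Mt2 were lower in mouse 2 and Slc39a10 was higher. The median size of the difference over the 35 genes, 0.18 log2 units, was close to the 0.20 of all genes.

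Mt1 was at 368 and 327 normalised CPM in the DMSO and GW3965 cultures of mouse 1 and at 125 and 150 in those of mouse 2. The mice did not overlap: mouse 1 was 2.95-fold higher with DMSO and 2.18-fold higher with GW3965 (log2 difference of mouse 2 over mouse 1 -1.34 ± 0.29, adjusted p = 0.00113). Mt2 (chr8:94172664-94173568, plus strand) lies upstream of Mt1 (chr8:94179082-94180327, plus strand) in the GENCODE M21 annotation of GRCm38. It was at 193 and 169 in mouse 1 and at 49.6 and 60.4 in mouse 2. Mouse 1 was 3.90-fold and 2.80-fold higher (-1.72 ± 0.27, adjusted p = 1.55e-07 in edgeR). DESeq2 called both as well (adjusted p = 1.56e-05 and 6.13e-09). Without the treatment covariate edgeR gave an adjusted p of 0.0826 for Mt1 and 0.0386 for Mt2, where 0.0735% of all genes were called. Within each mouse, both genes were lower with GW3965 in mouse 1 and higher in mouse 2.

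Slc39a10, a plasma-membrane zinc importer that pairs with Slc39a6, was at 8.83 and 6.82 normalised CPM in mouse 1 and at 15.3 and 16.1 in mouse 2 (1.01 ± 0.26, adjusted p = 0.0184). DESeq2 did not call it (adjusted p = 0.860), and edgeR without the covariate gave 0.311. In TPM the gene sums were 3.35 and 1.39 in mouse 1 and 3.68 and 3.76 in mouse 2, so the DMSO libraries hardly differed on that scale. There the short transcripts Slc39a10-203 and Slc39a10-204 added 0.892 and 0.525 TPM to the DMSO library of mouse 1 from 5 and 4 counts. The full-length Slc39a10-201 was at 1.56 and 1.02 TPM in mouse 1 and at 2.61 and 2.98 in mouse 2. Its partner Slc39a6 was at 9.19 and 6.94 normalised CPM in mouse 1 and at 8.59 and 10.6 in mouse 2, with no call. Slc40a1, next by p, had a difference of -0.49 ± 0.25 (adjusted p = 0.970 in edgeR).

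Other genes of zinc handling named here did not pass the test between the mice. Slc30a1, which carries a metal response element core in the sequence above, was at -0.30 ± 0.23 (adjusted p = 0.996), with the DMSO culture of mouse 1 above the other 3. Mtf1 was at 0.00 ± 0.23. The importer Slc39a4 was at 0.45 ± 0.25 (adjusted p = 0.996 in edgeR). Mt3 and Mt4, neighbours of Mt1 in the cluster on chromosome 8, were at 0.477 to 2.07 normalised CPM.

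Some marker genes of other cells differed between the mice, while others of the same lists did not. Of the red cell markers Hbb-bs and Hba-a1 were called in edgeR, as were 0.684% of all genes. Without the covariate Hbb-bs was not called (adjusted p = 0.0522 in edgeR). Hbb-bs was at 3.85 and 9.20 normalised CPM in mouse 1 and at 62.7 and 51.8 in mouse 2, and Hba-a1 at 1.69 and 1.89 and at 12.3 and 8.66. Alas2 stayed at or below 0.689 in each library. The 7 Paneth markers summed to 14011 and 15207 in mouse 1 and to 12147 and 12490 in mouse 2. Mmp7 was lower in mouse 2 (82.7, 109, 43.3 and 40.4 in DMSO and GW3965 of mouse 1, then of mouse 2). It was called in edgeR, but not without the covariate (adjusted p = 0.126). Defa17 (-0.13 ± 0.31) and Defa24 (-0.15 ± 0.31) were not called. Of the enterocyte list Lct was called (10.2 and 9.38 against 29.9 and 36.5). Fabp1 went the other way (629 and 804 against 425 and 431) and was not called. Of the immune list Gzma was called in edgeR (61.0 and 124 against 52.4 and 39.8), with its high value in the GW3965 library of mouse 1, but not in DESeq2 (adjusted p = 0.766) or in edgeR without the covariate (adjusted p = 0.652). The part of these cells in the difference of Mt1, Mt2 and Slc39a10 was not tested. Each mouse stands for 1 animal and 1 crypt preparation, which cannot be told apart.

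**Figure D3:**
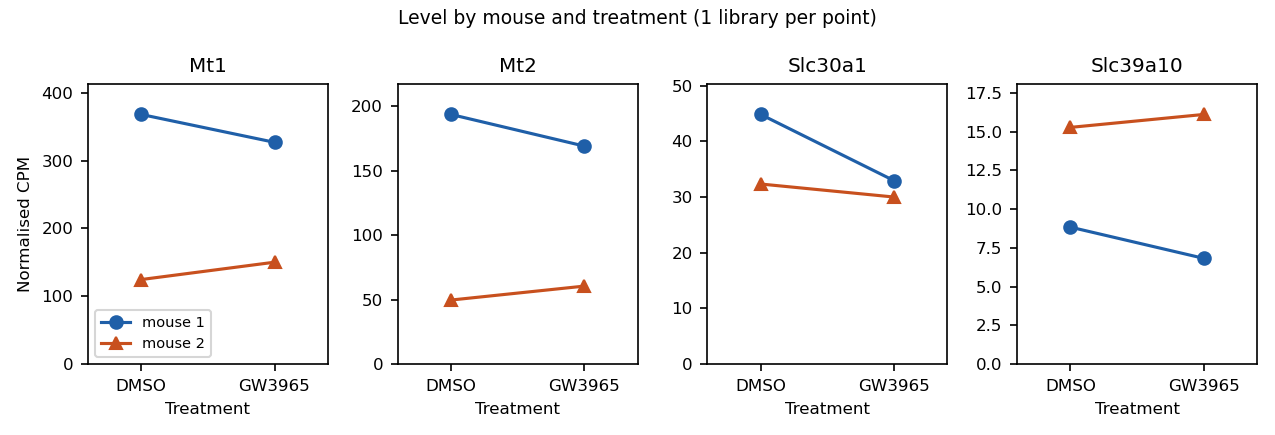
Normalised CPM of Mt1, Mt2, Slc30a1 and Slc39a10 in DMSO and GW3965 (each axis starts at 0); each point is 1 library and lines join the cultures of 1 mouse. Mouse 1 lies above mouse 2 for Mt1 and Mt2 and below it for Slc39a10 in both treatments.

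**Figure D4:**
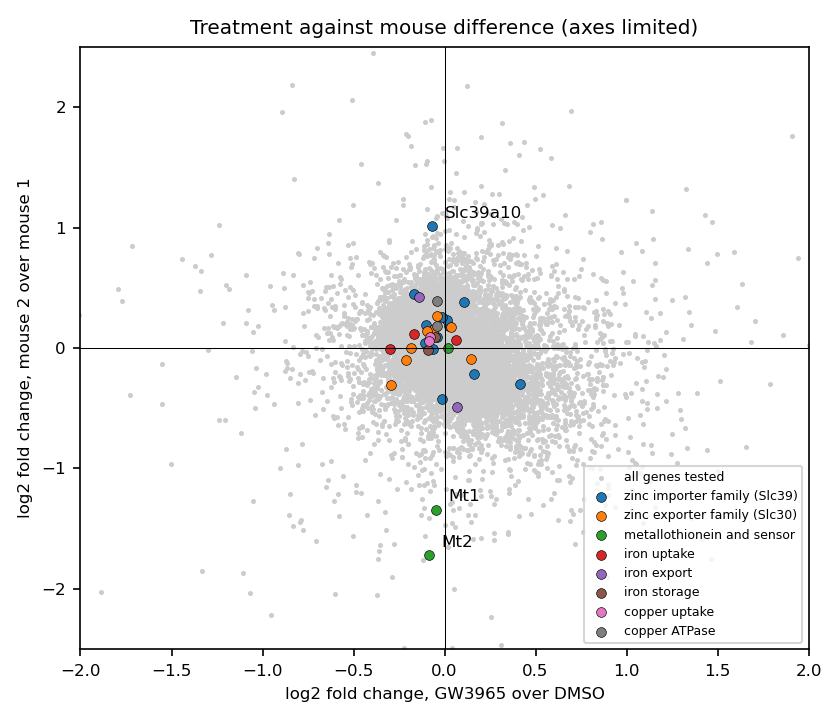
Log2 fold change of mouse 2 over mouse 1 (vertical axis) against that of GW3965 over DMSO (horizontal axis) for all genes tested (grey) and the 35 metal genes coloured by role; axes are limited to 2 and 2.5 log2 units, so some grey points fall outside. Mt1, Mt2 and Slc39a10 stand apart vertically, and no metal gene lies beyond 0.41 horizontally.

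The difference between the mice depends on which deposited values are used. The authors' deposited table of log2 CPM lists 8524 gene symbols, among them 31 of the 38 genes. In that table Mt1 stood at 8.05 (DMSO) and 8.01 (GW3965) in mouse 1 and at 7.73 and 7.99 in mouse 2. The mean difference between the mice was -0.17 there, against -1.34 on the log2 CPM scale from the summed counts. For Mt2 the values were -0.22 and -1.72, and for Slc39a10 0.10 and 1.00. The difference was smaller in the authors' deposited table for 28 of the 31 genes. Over the 8451 symbols matched once in both, the median size of the mouse difference was 0.0164 in the authors' deposited table and 0.165 from the counts, whereas that of the treatment difference was 0.0588 and 0.0999. Each of its 4 columns was nevertheless closest to its own library, by the correlation of deviations from the gene mean across genes. This was at least 0.347 with the own library and at most 0.317 with another. No source at hand says how that table was scaled or adjusted, and the cause of the smaller mouse differences was not tested.

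**Figure D5:**
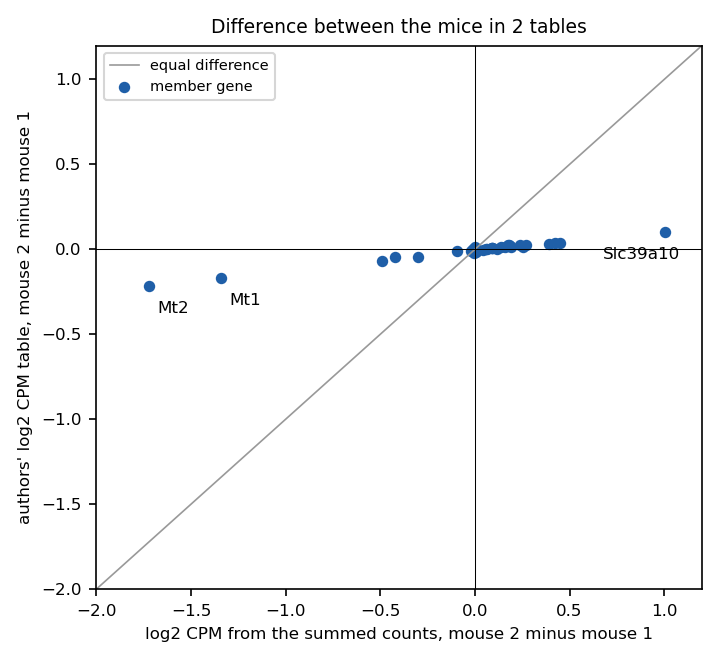
Difference of mouse 2 minus mouse 1 (mean over both treatments, log2 CPM) in the authors' deposited table (vertical axis) against that from the summed counts (horizontal axis) for the 31 metal genes in both; the grey line marks equal differences. Points lie close to the horizontal axis, with Mt2 at -1.72 from the counts and -0.22 in the table.

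Other genes of the same pathways were read from lists chosen by function. Of 32 further iron genes 27 were tested and 0 were called with GW3965 (edgeR, 0 at an unadjusted p under 0.05, 0 by DESeq2 and 0 with the mouse as a block); 8 were above and 19 below 0, with a median of -0.09 (all genes, 0.00), of -0.33 in mouse 1 and of 0.03 in mouse 2. The smallest p belonged to Steap3, an endosomal ferric reductase, at 4.57 and 2.497 normalised CPM in mouse 1 and at 3.29 and 2.68 in mouse 2 (-0.60 ± 0.34, adjusted p = 0.99986 in edgeR). Aco1, one of the iron regulatory proteins, was at 123 and 74.1 in mouse 1 and at 115 and 119 in mouse 2 (-0.30 ± 0.25), and Slc25a37, the mitochondrial iron importer, at 110 and 182 and at 128 and 111 (0.30 ± 0.26). In both, the GW3965 library of mouse 1 was the one away from the rest. The haem and folate carrier Slc46a1 was at 23.7 and 18.2 and at 23.3 and 21.6 (-0.24 ± 0.19). Hamp, the hormone hepcidin that degrades ferroportin, was at 0.103 to 0.472 and not tested.

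All 11 further copper genes were tested, with 0 called (edgeR, 0 at an unadjusted p under 0.05, 0 by DESeq2 and 0 with the mouse as a block), 8 above and 3 below 0 and a median of 0.05. The copper chaperones Atox1 (55.8 and 85.0 normalised CPM in mouse 1, 66.7 and 58.5 in mouse 2) and Cox17 (43.7 and 66.8, 53.6 and 45.4) were highest in the GW3965 library of mouse 1. Of the 6 further zinc genes 4 were above and 2 below 0, with 0 called under the same tests and 0 at an unadjusted p under 0.05. Mt3 came nearest, at 0.770 and 2.07 normalised CPM in mouse 1 and at 0.583 and 0.944 in mouse 2 (1.13 ± 0.53, adjusted p = 0.99986 in edgeR), a level of few reads.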

How the data were processed

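The 4 single-end, poly-A-selected libraries, 1 per culture, were made with a stranded kit, per the labels' protocols. The submitters' processing notes name kallisto, CASAVA 1.7, FastQC and mm10. The deposited tables give estimated counts and TPM per transcript with transcript lengths (other units), per the file headers. A deposited series-wide table holds the same counts, rounded, and a deposited table holds log2 CPM per symbol. No source used here names the annotation release or the use of strand.

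Of 88198 transcripts, 86119 (97.6%) matched GENCODE M21. Estimated counts were summed per gene and rounded; unmatched transcripts (0.685 to 0.854% of counts) stayed out. edgeR 4.0.16 in R 4.3.3 (filterByExpr with a minimum count of 10, TMM, glmQLFit and glmQLFTest, Benjamini-Hochberg threshold 0.05) was fitted to all genes, and then read for the metal genes. DESeq2 1.42.0 was an alternative. Estimated counts of 16572359 to 19486547 per library set the precision, and a count of 0 allows 3 counts (counting error only).

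The labels' replicate number is the mouse number, so equal numbers pair 2 cultures of 1 mouse; their deviations from the group means correlated at 0.0724. The fit without a block was the main one. Full statistics were given to the genes with the smallest p (6 by treatment, 4 between mice), the 6 highest in DMSO and a list of known transporters, ferritins and metallothioneins. The genes and lists were chosen with earlier results of these data known. Some listed marker genes are not reported here.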

Additional observations from a re-analysis of the deposited data

How the results depend on the processing

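With GW3965 against DMSO, the 0 calls among the metal genes held under every alternative run, at 0 of 35 or 36 genes (edgeR and DESeq2). Over all genes the count of 8 became 20 with DESeq2, 14 with no filter on low counts, 48 with the mouse as a replicate block, and 38 to 84 when 1 library was left out. Without the GW3965 library of mouse 2, 6 of the 35 metal genes were at an unadjusted p under 0.05, as were 3311 of all 14114 genes tested. DESeq2 called 195 of all transcripts, against 0 in edgeR, and 0 of the metal genes. The replicate block, pairing cultures of 1 mouse, changed no other call; the median log2 fold change was -0.05 with and without it, and -0.14 to -0.01 with 1 library left out.

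Fitted signs were less stable: 21 of 35 genes changed sign in at least 1 of 11 settings, with no call in any. The count of genes at 10 TPM or more in DMSO was 21 and ranged up to 24.

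Between the mice, 93 genes became 28 with DESeq2 and 10 without the treatment covariate, and the 3 metal genes became 2 and 1. With treatment in the model and 1 library left out no residual degree of freedom remains, so that fit was not run. An alternative chosen after seeing the data left out the covariate and each library in turn: it called 50 to 2811 genes (78 and 140 for the others) and 1 to 7 metal genes. The highest counts, 2811 and 7, were without the DMSO library of mouse 1; the lowest for the metal genes, 1, was without either library of mouse 2. The cause was not tested. Lone libraries were assumed to vary like the other group. Low counts limit genes such as Slc39a2 and Mt3, and 2 cultures per group limit every test here.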
